A study of Mus musculus with 11 samples.

Results

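Batf, Cebpa and Nfatc2 are 3 genes for transcription factors of immune cell differentiation, out of 754 genes counted on a Nanostring myeloid panel in peritoneal macrophages. They were chosen from their measured values across treatment and genotype, so their levels and differences below are a description of these mice and carry no test. RELMα, encoded by Retnla, is a secreted protein that macrophages make in large amounts in response to IL-4, and the study asked which macrophage genes respond to IL-4 differently when RELMα is missing. F4/80+ CD11b+ cells were sorted from the peritoneal cavity of female C57BL/6 mice aged 6 to 8 weeks, at day 4 after intraperitoneal injections on days 0 and 2 of PBS or of IL-4c, which is IL-4 bound to an antibody that prolongs its action. The 4 groups were PBS-injected wild-type mice (Rα+/+, mice 1 and 2, n = 2), PBS-injected RELMα-deficient mice (RαTd/Td, mice 3 and 4, n = 2), IL-4c-injected Rα+/+ mice (mice 5, 6 and 7, n = 3) and IL-4c-injected RαTd/Td mice (mice 9, 10, 11 and 12, n = 4).

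In RαTd/Td mice both copies of Retnla carry the red fluorescent reporter TdTomato in place of exons of the gene. The allele was made constitutive with a Cre line driven by the CMV promoter, so RELMα is missing from every cell and from development on, not from macrophages alone. The line was bred with C57BL/6 mice to give both genotypes as littermates. Each PBS group held 2 mice and the experiment was done on a single occasion. 1 further IL-4c-injected Rα+/+ mouse was set aside by the study and was not analysed here. The deposited values are counts scaled to 4 housekeeping genes, here called normalized counts, and the lowest value a gene can have is 30 (the floor).

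BATF is a small basic leucine zipper protein of the AP-1 family. It has no activation domain of its own, pairs with JUN proteins, and binds DNA together with IRF4 or IRF8 at composite sites, a mode of action best known from T cells, B cells and dendritic cells. C/EBPα, the product of Cebpa, is a basic leucine zipper protein that myeloid progenitors need to enter the granulocyte and monocyte lineages, and it acts at promoters such as that of the receptor for macrophage colony-stimulating factor. NFATc2 stays in the cytoplasm in a phosphorylated form until calcium activates the phosphatase calcineurin, then enters the nucleus and often binds next to AP-1 dimers. IL-4 itself signals through IL-4Rα, Janus kinases and STAT6. Large peritoneal macrophages, the main resident macrophages of this cavity, depend on the factor GATA6.

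The 250 bases before the annotated starts of the 3 genes are shown because the 3 genes stood out in the same group, IL-4c-injected Rα+/+ mice, where Batf had its highest level, Cebpa its lowest, and Nfatc2 was above the floor in every mouse. The sequences are from RefSeq on GRCm38.p6, all 3 symbols matched, and capitals mark every match to GGAAA, the core letters bound by NFAT proteins, on either strand. The Batf window is chr12:85686470-85686719 on the plus strand, the Cebpa window is chr7:35119043-35119292 on the plus strand, and the Nfatc2 window is chr2:168601658-168601907 on the minus strand.
Batf: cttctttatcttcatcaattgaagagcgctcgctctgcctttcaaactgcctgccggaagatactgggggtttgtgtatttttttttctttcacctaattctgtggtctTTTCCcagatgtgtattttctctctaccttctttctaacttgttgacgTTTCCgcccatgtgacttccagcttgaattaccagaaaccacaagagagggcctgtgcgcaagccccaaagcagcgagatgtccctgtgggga
Cebpa: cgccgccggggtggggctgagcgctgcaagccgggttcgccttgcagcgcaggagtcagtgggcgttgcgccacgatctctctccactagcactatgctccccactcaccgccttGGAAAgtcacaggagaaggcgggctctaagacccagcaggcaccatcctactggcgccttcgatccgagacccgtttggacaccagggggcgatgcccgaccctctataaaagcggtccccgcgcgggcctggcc
Nfatc2: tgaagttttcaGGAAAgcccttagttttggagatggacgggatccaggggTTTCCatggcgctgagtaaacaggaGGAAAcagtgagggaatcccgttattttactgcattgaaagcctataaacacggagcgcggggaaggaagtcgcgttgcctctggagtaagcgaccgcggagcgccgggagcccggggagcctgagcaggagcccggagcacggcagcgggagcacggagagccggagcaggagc
The Batf window held 2 matches, at 137 to 141 and 89 to 93 bases before the start. The Cebpa window held 1 match, at 131 to 135 bases before the start, and the Nfatc2 window held 3, at 235 to 239, 196 to 200 and 171 to 175 bases before the start. A second annotated start of Nfatc2, with its window at chr2:168590366-168590615 on the minus strand, had 1 match at 183 to 187 bases. These letters are common, since 55.6% of 32851 windows of the same length held at least 1 match. The letters TTCNNNGAA of STAT proteins (in 7.02% of the windows), the STAT6 form of this motif with 1 more base in its middle (5.85%), TGANTCA of AP-1 (6.75%) and TTGCNNAA of C/EBP proteins (9.56%) were searched on both strands as well, and had 0 matches in the 4 windows. The share of G and C was 46.4% in the Batf window, 66.4% in the Cebpa window and 59.6% in the first Nfatc2 window, against a median of 52.4% over all windows. A match describes the letters in a window and is not evidence of binding.

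The genotype labels were checked on Retnla. In the PBS-injected Rα+/+ mice Retnla had 4631 and 4141 normalized counts, and in the 3 IL-4c-injected Rα+/+ mice it had 115675, 147349 and 171588. It was at the floor in all 6 RαTd/Td mice, so the level in Rα+/+ mice was at least 77.9-fold higher after PBS and at least 4483-fold higher after IL-4c than the lowest values measurable in the RαTd/Td groups. No mouse went against its label.

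Depth set how low a gene could be read. Genes above the floor summed to between 268858 and 574505 counts per mouse, and the factor applied to each mouse ran from 0.750 in mouse 2 to 1.88 in mouse 4. The lowest normalized count measurable was 48.2 in mouse 1, 30 in mouse 2, 56.1 and 56.3 in the PBS-injected RαTd/Td mice, 34.3 to 36.4 in the IL-4c-injected Rα+/+ mice and 30 to 34.4 in the IL-4c-injected RαTd/Td mice. Batf and Cebpa were above these limits in every mouse. Nfatc2 was above them in 4 of 11 mice, and it entered the set of 445 genes with a mean above 30 only through those mice.

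Batf was lowest in PBS-injected Rα+/+ mice and highest in IL-4c-injected Rα+/+ mice. It had 54.7 and 51.7 normalized counts after PBS in Rα+/+ mice (53.2 ± 2.07, mean ± SD, n = 2). After IL-4c it had 90.5, 95.9 and 111 in Rα+/+ mice (99.2 ± 10.9, n = 3). These values did not overlap, and the level was 1.86-fold higher after IL-4c, a difference of 0.88 ± 0.12 on the log2 scale (± SE). All log2 differences here are of log2(normalized count + 1), which understates changes of low genes.

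In RαTd/Td mice the Batf values with and without IL-4c overlapped under the housekeeping scaling, and the direction of their difference depends on the scaling. The PBS-injected RαTd/Td mice had 87.8 and 75.1 (81.5 ± 8.99, n = 2), and the IL-4c-injected RαTd/Td mice had 80.9, 71.3, 73.3 and 87.2 (78.2 ± 7.31, n = 4). The 2 groups overlapped, with a log2 difference of -0.06 ± 0.12, and of 0.05 without mouse 3. It was 0.27 when each mouse was centred on the median gene and 0.31 after quantile normalization. Under the housekeeping scaling both RαTd/Td groups lay between the Rα+/+ groups, in the order PBS Rα+/+, IL-4c RαTd/Td, PBS RαTd/Td and IL-4c Rα+/+, and of the neighbours in this order only the middle pair overlapped. The middle pair changes places under the other 2 scalings. How many of all genes show ranges as separate as those of Batf was not counted. RαTd/Td mice had 1.53-fold more Batf than Rα+/+ mice after PBS (log2 difference 0.60 ± 0.13, and 0.28 and 0.43 under the other scalings) and 1.27-fold less after IL-4c (-0.34 ± 0.10), and the log2 response to IL-4c differed by -0.94 ± 0.17 in RαTd/Td from Rα+/+ mice.

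These Batf values rest on 34 to 96 counts per mouse. The 95% Poisson interval of mouse 1 (34 counts) ran from 37.9 to 76.4 normalized counts and that of mouse 7 (96 counts) from 90.2 to 136. The intervals of the IL-4c-injected mice of the 2 genotypes overlapped in part, for instance 71.6 to 113 in mouse 5 and 64.6 to 100.07 in mouse 9. The intervals cover counting error only. In a pool of sorted cells, fewer cells that express a gene and less RNA per cell cannot be told apart.

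Cebpa was lower after IL-4c in both genotypes. It had 1720 and 1231 normalized counts in PBS-injected Rα+/+ mice (1476 ± 346, n = 2) and 499, 499 and 383 in IL-4c-injected Rα+/+ mice (460.2 ± 67.0, n = 3). All IL-4c values lay below both PBS values, and the PBS level was 3.19-fold the IL-4c level (log2 difference -1.67 ± 0.31). In RαTd/Td mice it had 1992 and 2201 after PBS (2096 ± 148, n = 2) and 554, 652, 959 and 1039.7 after IL-4c (801 ± 235, n = 4). The PBS level was 2.70-fold the IL-4c level in this genotype (-1.43 ± 0.29), again without overlap.

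RαTd/Td mice had more Cebpa than Rα+/+ mice under both treatments. The log2 difference was 0.52 ± 0.34 after PBS, which is 1.44-fold, and 0.76 ± 0.26 after IL-4c, which is 1.70-fold. The PBS difference was 0.20 when centred on the median gene, 0.343 after quantile normalization and 0.28 without mouse 2. Under the housekeeping scaling the 4 groups were ordered IL-4c Rα+/+, IL-4c RαTd/Td, PBS Rα+/+ and PBS RαTd/Td with no overlap between neighbours. Groups of 2 mice separate easily, and the share of all genes without overlap was not counted. On the log2 scale the spread was widest among the IL-4c-injected RαTd/Td mice, in which mouse 9 was nearest to the Rα+/+ mice, mice 11 and 12 were highest and mouse 10 lay between. The difference between the genotypes in the log2 response, 0.24 ± 0.42, was smaller than its SE. Leaving out mouse 1 or mouse 2 gave -0.01 and 0.48 for it. Cebpa rested on 330 to 1641 counts per mouse, so counting error was small beside the spread between mice.

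Nfatc2 was read above the floor in all 3 IL-4c-injected Rα+/+ mice and in 1 other mouse. Its normalized counts were 44.7, 51.0 and 41.8 in IL-4c-injected Rα+/+ mice (45.8 ± 4.70, n = 3), from 39, 42 and 36 counts. Among the IL-4c-injected RαTd/Td mice, mouse 9 had 33.3 from 35 counts and mice 10, 11 and 12 were at the floor. All 4 PBS-injected mice were at the floor.

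The limits of measurement decide what these values can show. The IL-4c-injected RαTd/Td mice could have shown values down to between 30 and 34.4, so the IL-4c-injected Rα+/+ level was at least 1.39-fold the level in IL-4c-injected RαTd/Td mice, on geometric means with each mouse at the floor set to its limit. Against the PBS-injected Rα+/+ mice it was at least 1.1996-fold higher, but the limit of mouse 1, 48.2, lay above 2 of the 3 IL-4c values. The PBS-injected RαTd/Td mice had limits of 56.1 and 56.3, above every Nfatc2 value measured, so a difference from them was not detectable at this depth. The 95% Poisson intervals of mouse 5, 31.8 to 61.0, and mouse 7, 29.3 to 57.8, included the value of mouse 9. The fitted log2 differences, 0.59 ± 0.08 for IL-4c in Rα+/+ and -0.55 ± 0.07 between the genotypes after IL-4c, treat the floor as a value and are no bounds. Of the 754 genes, 19 were above the floor in every IL-4c-injected Rα+/+ mouse and at the floor in every PBS-injected mouse. In the IL-4c-injected RαTd/Td group 15 of these were above the floor in all 4 mice, and 3 in at most 1 mouse: Nfatc2, Acot11 and Dusp2. Dusp2, a phosphatase of MAP kinases, was named after its values were seen.

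**Figure D1:**
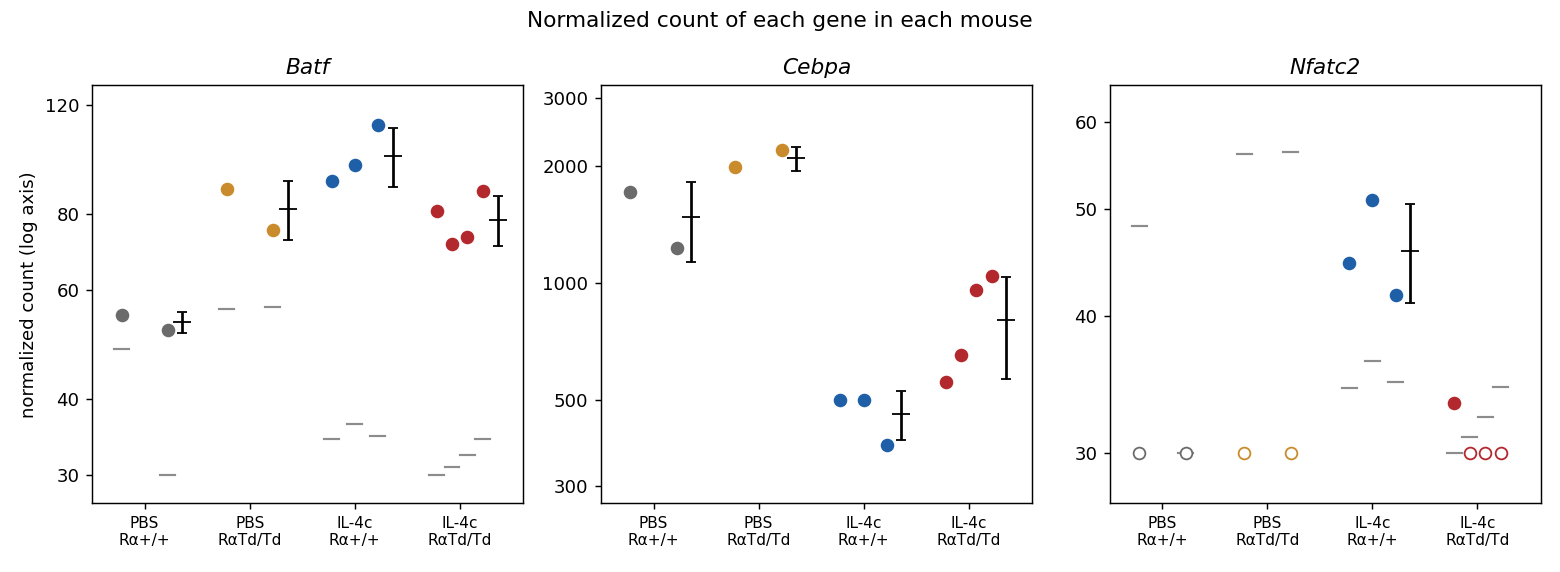
Normalized counts (log axis) of Batf, Cebpa and Nfatc2 in the 11 mice by group; filled points are measured values, open points are at the floor of 30, short grey lines mark the lowest value measurable in that mouse (not drawn for Cebpa), and black bars are mean ± SD for groups wholly above the floor. The Batf mean is 53.2 and 99.2 in the Rα+/+ groups with both RαTd/Td groups in between, Cebpa is lower after IL-4c in both genotypes, and the limits of the PBS-injected RαTd/Td mice lay above every Nfatc2 value.

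The choice of scaling changed some of these differences. Centring each mouse on the median gene in place of the 4 housekeeping genes moved the median of all 445 genes by 0.28 and 0.33 for IL-4c in Rα+/+ and RαTd/Td mice, and the median of the genotype differences by -0.33 (PBS) and -0.28 (IL-4c). The Batf difference with IL-4c in RαTd/Td mice then changed sign, to 0.27, and it was 0.31 after quantile normalization. The Batf difference with IL-4c in Rα+/+ mice was 1.17 and 1.13, its difference between the genotypes was 0.28 and 0.43 after PBS and -0.62 and -0.40 after IL-4c, and the difference in response was -0.90 and -0.83. For Cebpa the difference with IL-4c was -1.38 and -1.44 in Rα+/+ mice and -1.10 and -1.25 in RαTd/Td mice, and the genotype difference after IL-4c was 0.48 and 0.53. After PBS the genotype difference of Cebpa was 0.20 and 0.343, where its residual SD was 0.337. Nfatc2 after PBS, at the floor in both genotypes, took a value of -0.33 by centring alone. Only the joint level of the 4 housekeeping genes is fixed by the scaling. Between RαTd/Td and Rα+/+ mice after PBS Rpl19 had a log2 difference of 0.30, Gusb of -0.16, Eef1g of -0.13 and Oaz1 of -0.01, so the factors depend on which of these genes are used.

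**Figure D2:**
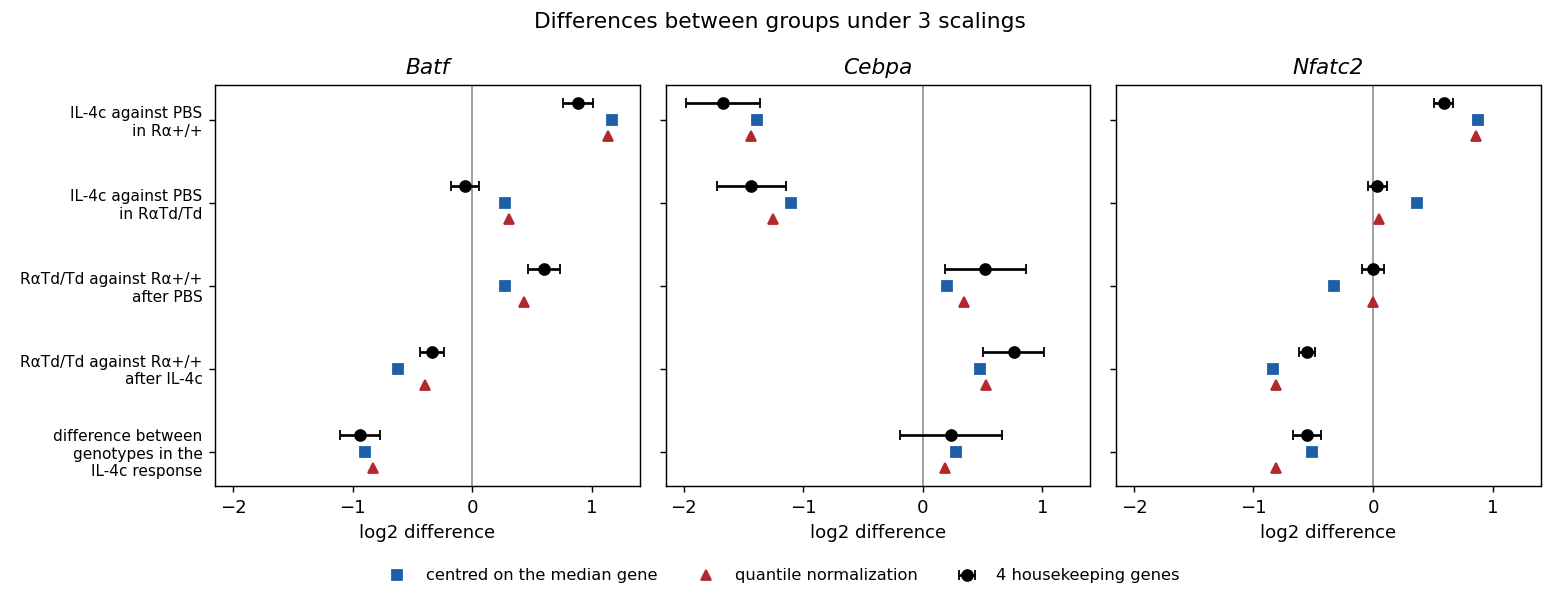
Log2 differences of Batf, Cebpa and Nfatc2 in 5 comparisons; black points are scaled to the 4 housekeeping genes with bars of ± SE, blue squares are centred on the median gene and red triangles are quantile normalized. The Batf difference with IL-4c in RαTd/Td mice is at -0.06, 0.27 and 0.31 under the 3 scalings, and Cebpa is below 0 with IL-4c and above 0 in RαTd/Td against Rα+/+ under each.

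The 3 genes were compared with all 445 tested genes by the root mean square (RMS) difference of log2 values over the 11 mice, each gene centred on its mean. Batf was closest to Dnajb6 (0.19), Hmgb1 (0.20), Abcf1 (0.20), Gtf2h2 (0.22) and Irf4 (0.23), where the median gene was at 0.50 and the RMS of Batf about its own mean was 0.31. Dnajb6, a co-chaperone, had log2 differences with IL-4c of 0.56 in Rα+/+ and 0.08 in RαTd/Td mice. Irf4, which encodes a DNA-binding partner of BATF, had 0.55 and -0.11. Since these genes were picked for likeness to a chosen gene, their differences are given here with no test.

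Cebpa was closest to Rgs1 (0.19), C1qa (0.21), Cd14 (0.22), Fn1 (0.23) and Itga4 (0.24), far below its own RMS of 0.84. Rgs1 encodes a regulator of G protein signalling, C1qa a chain of complement C1q, Cd14 a co-receptor for bacterial lipopolysaccharide, Fn1 fibronectin and Itga4 an integrin chain. Each of the 5 had lower values after IL-4c in both genotypes, with log2 differences from -1.03 for C1qa in RαTd/Td to -2.09 for Cd14 in Rα+/+ mice, and each had a positive difference between RαTd/Td and Rα+/+ after IL-4c, from 0.53 for Fn1 to 0.97 for Cd14. The 5 were picked for likeness to Cebpa over these same mice, so directions shared with Cebpa follow from the choice. Nfatc2 was closest to Acot11 (0.08), Il1r1 (0.16), Nr1h3 (0.16), Nubp1 (0.19) and Tmem173 (0.20), with an own RMS of 0.26. Acot11, an acyl-CoA thioesterase, was above the floor only in mice 5, 6 and 7, at 44.7, 58.2 and 46.4. Il1r1 and Nr1h3 were above it in 2 mice each and Tmem173 in 7, so the likeness to Nfatc2 rests in large part on shared floor values. Between the 3 genes, Batf and Nfatc2 differed by an RMS of 0.25, and each differed from Cebpa by 1.05.

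**Figure D3:**
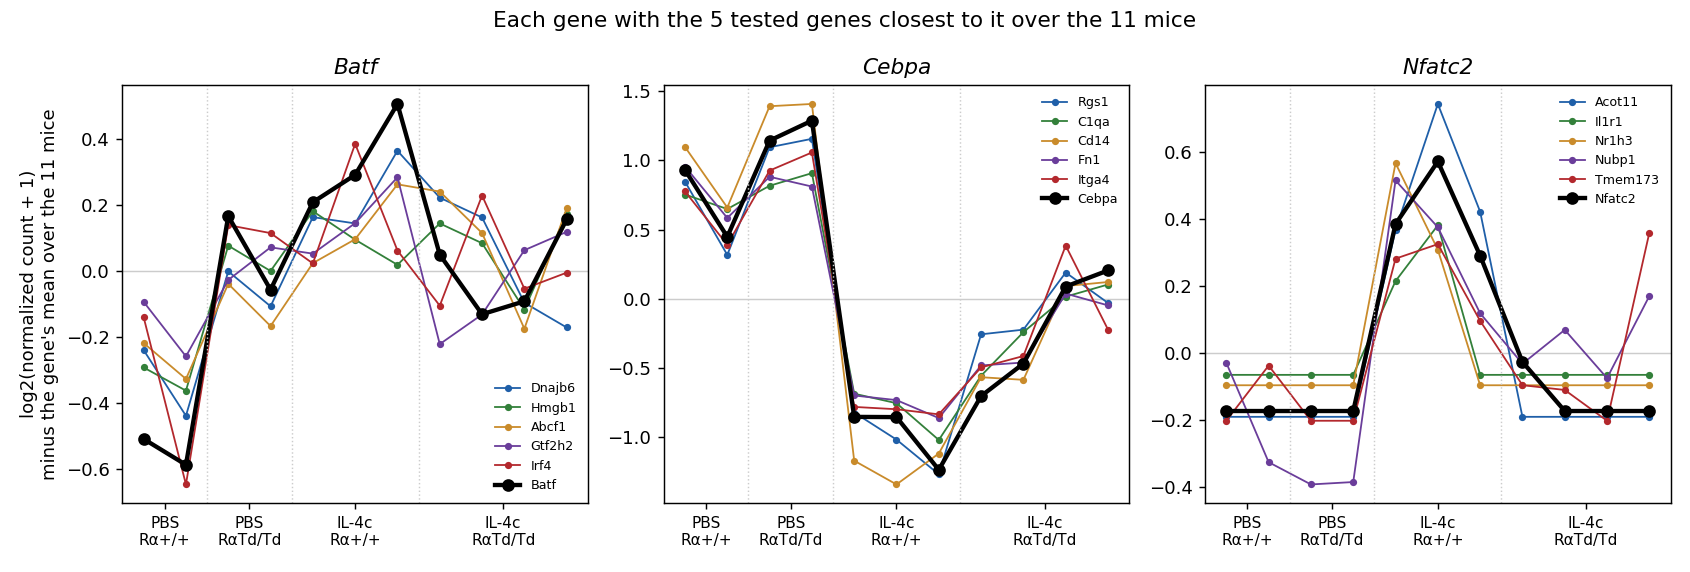
Log2(normalized count + 1) in each of the 11 mice, minus the gene's mean over the mice, for Batf, Cebpa and Nfatc2 (black) and the 5 tested genes closest to each (colours); dotted lines separate the groups and the vertical scales differ. The lines around Cebpa drop from PBS to IL-4c and their group means after IL-4c are higher in RαTd/Td than in Rα+/+ mice, while most lines around Nfatc2 are flat at the floor outside the IL-4c-injected Rα+/+ mice.

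Related genes were read from 7 lists, which together named 116 genes. Of these 60 were on the panel and 37 had a mean above the floor and were tested with limma, a gene counting as called at an adjusted p at or under 0.05. For IL-4c in Rα+/+ mice 5 of the 37 were called higher and 22 lower, where 13.9% of all 445 tested genes were called higher and 32.4% lower. For IL-4c in RαTd/Td mice 2 were higher and 22 lower, against 15.3% and 36.6%. In PBS-injected mice 5 were called higher in RαTd/Td than in Rα+/+ and 0 lower, against 8.09% and 1.57%. Without mouse 4 none of these 5 was called (log2 differences from 0.72 to 1.22, adjusted p from 0.0693 to 0.116). Among IL-4c-injected mice the counts were 1 and 0, against 1.57% and 1.12%. At an unadjusted p at or under 0.05 limma gave 11 and 0 with PBS, where all genes had 19.3% and 3.596%, and 9 and 1 with IL-4c, where all genes had 18.9% and 2.92%. In the test of the difference between the genotypes in the IL-4c response 0 list genes were called with a higher and 2 with a lower response in RαTd/Td, against 0.674% and 1.35% of all genes, and 1 and 7 at an unadjusted p, where all genes had 6.97% and 8.54%. These counts depend on scaling: centring on the median gene gave 7 and 15 for IL-4c in Rα+/+ mice, where all genes had 24.7% and 23.1%, and 8 and 16 in RαTd/Td mice, where all genes had 31.5% and 23.1%. It gave 2 and 0 between the genotypes with PBS (all genes 2.02% and 3.15%). The median log2 difference of the 37 genes was -0.58 and -0.43 for IL-4c in Rα+/+ and RαTd/Td mice, where all genes had -0.18 and -0.23. The shares of all genes called are the background for each list below. The comparisons share groups and are not independent of each other.

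**Figure D4:**
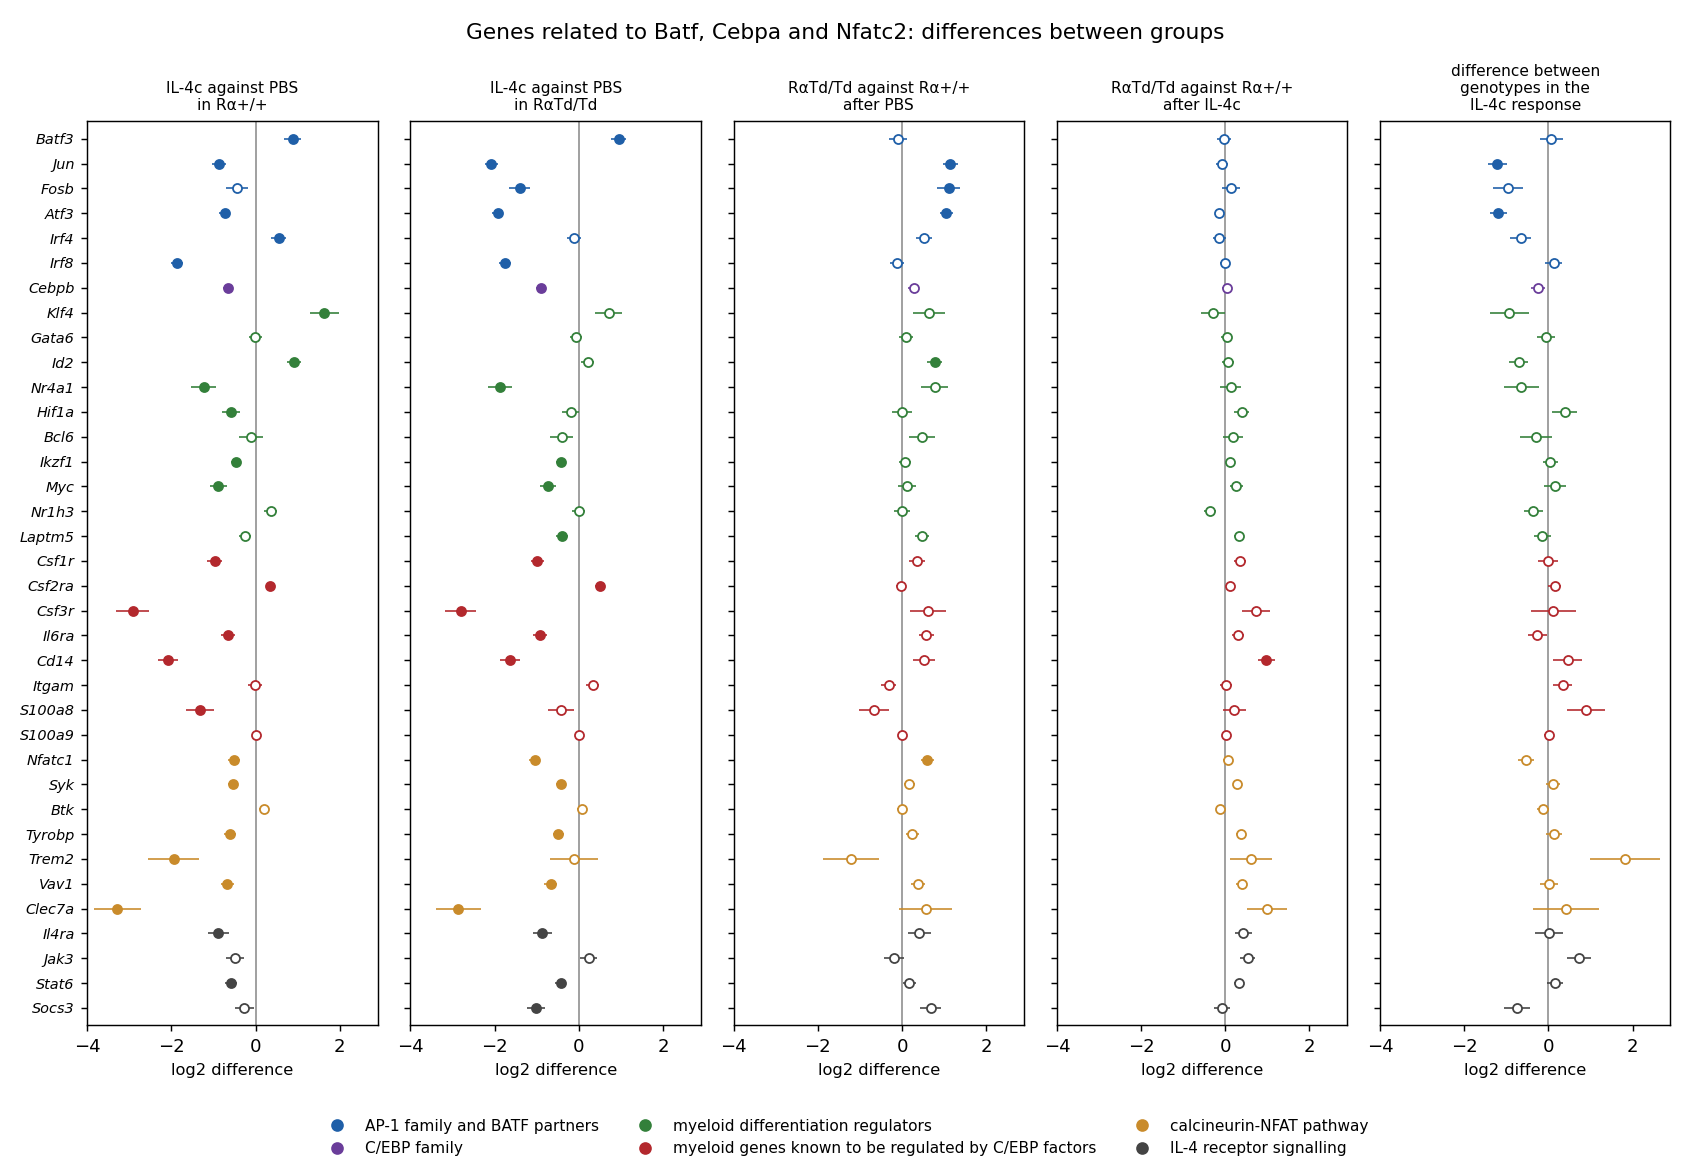
Log2 differences ± SE of 36 of the 37 tested list genes in the 5 comparisons, coloured by list; filled points have a limma adjusted p at or under 0.05. Filled points lie mostly to the left of 0 for IL-4c against PBS in both genotypes, and 5, 1 and 2 genes are filled in the other 3 panels.

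AP-1 genes and partners of BATF differed among themselves. Of 12 listed genes 7 were on the panel and 6 were tested, with 2 called higher and 3 lower for IL-4c in Rα+/+ mice, where all genes had 13.9% and 32.4%. The counts in RαTd/Td mice were 1 and 4, where all genes had 15.3% and 36.6%. With 1 floor for all mice the counts were 1 and 3 in Rα+/+ and 0 and 4 in RαTd/Td mice, where 191 and 219 of all genes were called. Batf3, called higher in both genotypes, was at 30 to 34.5 normalized counts after PBS, at or near the floor. With 1 floor its log2 differences were 0.10 (adjusted p = 0.602) in Rα+/+ and 0.16 (adjusted p = 0.285) in RαTd/Td mice. Jun encodes a partner of BATF and had 267 and 243 normalized counts in PBS-injected Rα+/+ mice, 533 and 595 in PBS-injected RαTd/Td mice, 139, 136 and 144 in IL-4c-injected Rα+/+ mice and 170.4, 127, 124 and 114 in IL-4c-injected RαTd/Td mice. Like Batf, it was higher in RαTd/Td than in Rα+/+ mice after PBS without overlap (log2 difference 1.14 ± 0.18, adjusted p = 0.00565), but unlike Batf it fell with IL-4c in both genotypes (-0.86, adjusted p = 0.00194, and -2.08, adjusted p = 4.98e-06, no overlap). Its difference in response was -1.22 ± 0.22 (adjusted p = 0.0220). Without mouse 4 the PBS difference of Jun was 1.06 (adjusted p = 0.0693) and the difference in response -1.14 (0.122), and without mouse 2, 5, 6, 7 or 10 the call for the response was lost as well (differences from -1.24 to -1.15, adjusted p from 0.0530 to 0.0859).

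Irf4 was named for its likeness to Batf. It is counted with its list above, as 1 of the 2 genes called higher with IL-4c in Rα+/+ mice, and no p is given for it alone. It had 143 and 100.5 normalized counts after PBS and 160.3, 206 and 165 after IL-4c in Rα+/+ mice, which do not overlap, and 174 and 171 after PBS and 147, 185, 152 and 157 after IL-4c in RαTd/Td mice, which do. Irf8, which encodes the other IRF partner of BATF, had 125 and 101 in Rα+/+ and 87.8 and 122 in RαTd/Td mice after PBS, and was at the floor in all 7 IL-4c-injected mice. Its PBS level was at least 3.20-fold higher in Rα+/+ and at least 3.25-fold higher in RαTd/Td mice, so in IL-4c-injected Rα+/+ mice Irf8 was at the floor where Batf was highest.

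Among the relatives of Cebpa the panel held 3 of 5 listed C/EBP genes, and only Cebpb was above the floor. Cebpb, a C/EBP factor linked to alternative activation of macrophages, had 4674 and 3976 normalized counts in PBS-injected Rα+/+ mice and 2968, 2531 and 2739 after IL-4c. In RαTd/Td mice it had 5266 and 5176 after PBS and 2537 to 3017 after IL-4c. It fell with IL-4c in both genotypes without overlap (log2 difference -0.65 ± 0.12, adjusted p = 0.00191, and -0.90 ± 0.12, adjusted p = 0.000241). After IL-4c the genotypes overlapped for Cebpb (0.03 ± 0.10, adjusted p = 0.888), where those of Cebpa did not. This Cebpb difference was -0.25 when centred on the median gene and -0.24 after quantile normalization.

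Of 14 myeloid genes known to be regulated by C/EBP factors 11 were on the panel and 8 were tested. With IL-4c 1 was called higher and 5 lower in Rα+/+ mice, and in RαTd/Td mice the counts were 1 and 4, where all genes had 13.9% and 32.4%, and 15.3% and 36.6%. Centring gave 1 and 4 in Rα+/+ and 3 and 4 in RαTd/Td mice, where all genes had 24.7% and 23.1%, and 31.5% and 23.1%. Cd14 is also among the genes closest to Cebpa, so it is counted with its list and no p is given for it alone. It had 1666 and 1229.9 normalized counts in PBS-injected Rα+/+ mice and 346, 307 and 358 after IL-4c, and in RαTd/Td mice 2042 and 2066 after PBS and 519 to 847 after IL-4c. It is the list gene counted as called between the genotypes after IL-4c, with values that do not overlap and a log2 difference of 0.97 ± 0.20. It is not called when centred on the median gene (0.69), with 1 floor for all mice, with no filter, or without any of mice 1 to 7, 11 or 12 (0.86 to 1.02).

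Other myeloid differentiation regulators had 14 of 28 genes on the panel and 11 tested, with 2 called higher and 5 lower for IL-4c in Rα+/+ mice, where all genes had 13.9% and 32.4%. Centring gave 3 and 3 there, where all genes had 24.7% and 23.1%. By quantile normalization the counts were 2 and 3, where all genes had 23.4% and 24.0%. Fewer list genes were called without mouse 1, which leaves 1 mouse in its group, and fewer of all genes as well. For RαTd/Td mice limma called 0 higher and 5 lower, the same as at an unadjusted p at or under 0.05, where all genes had 16.9% and 41.1%. The RαTd/Td counts were 2 and 2 under centring, where all genes had 31.5% and 23.1%. By quantile normalization they were 0 and 3, where all genes had 20% and 24.5%. Without mouse 4, which leaves 1 mouse in its group, fewer list genes were called, and fewer of all genes as well. Laptm5, a lysosomal membrane protein of blood cells, was at 8889.5 to 14511 after PBS and 8115 to 12599 after IL-4c. Under the housekeeping scaling it was higher in RαTd/Td than in Rα+/+ mice without overlap under both treatments, but was not called. The log2 difference was 0.47 after PBS (adjusted p = 0.116) and 0.33 after IL-4c (adjusted p = 0.178). Centring on the median gene moves these differences by -0.33 after PBS and -0.28 after IL-4c, as it does for all genes. The PBS difference was 0.28 without mouse 2 and 0.67 without mouse 1. Its log2 difference with IL-4c was -0.25 ± 0.15 in Rα+/+ mice (adjusted p = 0.209) and -0.39 ± 0.14 in RαTd/Td mice (adjusted p = 0.0420, no overlap). Centring on the median gene turned these to 0.04 and -0.06, and the RαTd/Td call was lost without mouse 3, 4, 5, 6, 7, 9, 10 or 12 (differences from -0.43 to -0.35, adjusted p up to 0.190).

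Around Nfatc2 the panel held 7 of 30 listed genes of the calcineurin and NFAT pathway, all tested. With IL-4c limma called 0 higher and 6 lower in Rα+/+ mice, and 0 and 5 in RαTd/Td mice, where all genes had 13.9% and 32.4%, and 15.3% and 36.6%. The Rα+/+ count was lower without mouse 1 and the RαTd/Td count without mouse 4, as were the counts over all genes. Each of these leaves 1 mouse in its group. The counts were the same at an unadjusted p at or under 0.05, where all genes had 16.4% and 37.3% in Rα+/+ and 16.9% and 41.1% in RαTd/Td mice. Under centring on the median gene the counts were 1 and 3 in each genotype, where all genes had 24.7% and 23.1% in Rα+/+ and 31.5% and 23.1% in RαTd/Td mice. Nfatc1, the NFAT relative of Nfatc2, had 69.1 and 68.2 normalized counts in PBS-injected Rα+/+ mice and 49.2, 54.6 and 40.6 after IL-4c, and in RαTd/Td mice 114 and 95.8 after PBS and 46.5 to 52.4 after IL-4c. It was lower after IL-4c without overlap in both genotypes (log2 difference -0.51 ± 0.14, adjusted p = 0.0131, and -1.05 ± 0.13, adjusted p = 0.000219), in Rα+/+ mice the opposite direction to Nfatc2. The Rα+/+ call was lost under centring (-0.23, adjusted p = 0.254), by quantile normalization (-0.10, adjusted p = 0.638) and without mouse 1 (-0.50, adjusted p = 0.0564). Of 13 genes known as NFAT targets in immune cells 12 were on the panel, all at the floor in every mouse.

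The IL-4 receptor list had 6 of 14 genes on the panel and 4 tested, with 0 called higher and 2 lower by limma for IL-4c in Rα+/+ mice, where all genes had 13.9% and 32.4%, and 0 and 3 in RαTd/Td mice, where all genes had 15.3% and 36.6%. Without mouse 7 the calls in Rα+/+ mice were 3, where 186 of all 445 genes were called. Fewer list genes were called without mouse 1 in Rα+/+ and without mouse 4 in RαTd/Td mice, and fewer of all genes as well. Each of these 2 leaves 1 mouse in its group. At an unadjusted p at or under 0.05 the counts were 0 and 3 in each genotype, where all genes had 16.4% and 37.3% in Rα+/+ and 16.9% and 41.1% in RαTd/Td mice. Centring gave 0 and 1 in Rα+/+ mice, where all genes had 24.7% and 23.1%, and 1 and 2 in RαTd/Td mice, where all genes had 31.5% and 23.1%.

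The cell type of the sort was read from marker lists. All 6 macrophage genes on the panel of 7 listed were above the floor in every mouse, with summed normalized counts from 23600.1 to 29795 and Itgam (CD11b) the most abundant. All 4 genes of large peritoneal macrophages on the panel, of 6 listed, were above the floor in every mouse. Their sum was 19373 and 15076 in PBS Rα+/+, 18502 and 18875 in PBS RαTd/Td, 8262, 7819 and 9296 in IL-4c Rα+/+ and 10544, 10130.5, 9818 and 5959 in IL-4c RαTd/Td mice. Alox15 was the most abundant of them. Like Cebpa, the sum was lower after IL-4c in both genotypes without overlap, and unlike Cebpa it overlapped between the genotypes under both treatments. Gata6, a gene of the same list, had log2 differences with IL-4c of -0.00 ± 0.16 in Rα+/+ and -0.06 ± 0.15 in RαTd/Td mice, neither called. Timd4, also of this list, was called lower with IL-4c in Rα+/+ (-1.48) and RαTd/Td mice (-1.61). So was Alox15 (-0.99 and -1.02), but its calls were lost when centred on the median gene. Between the genotypes Timd4 was higher in RαTd/Td mice without overlap under both treatments, as Cebpa was, under the housekeeping scaling. Neither of these differences of Timd4 was called (0.45 after PBS, adjusted p = 0.217, and 0.33 after IL-4c, adjusted p = 0.237). Centring on the median gene moves them by -0.33 and -0.28.

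Markers of other cells were few. A list of small peritoneal macrophages and dendritic cells had 5 of 8 genes on the panel, Flt3, Itgax, Ccr7, Xcr1 and Clec9a, all at the floor in every mouse. These are best known from dendritic cells, so the share of small peritoneal macrophages in the sort cannot be read from them. All 3 panel genes of T and NK cells (of 19) and all 5 of eosinophils (of 5) were at the floor as well. Of mast cell and basophil genes (5 of 7 on the panel) only Cpa3 was above the floor, at 48.2 in mouse 1. The B cell list had 1 gene of 9 on the panel, Ms4a1, which was present in all 4 PBS-injected mice (105, 226, 192 and 242) and, after IL-4c, in mouse 12 alone (63.1). Of the neutrophil and monocyte list 10 of 12 genes were on the panel. Ly6g, Mpo, Elane, Cxcr2 and Camp were at the floor in every mouse. Csf3r had the highest mean of the list over the 11 mice. After IL-4c the mean of Ccr2 was above that of Csf3r, at 84.9 against 47.9 in Rα+/+ and 192 against 80.3 in RαTd/Td mice. Ccr2, the chemokine receptor of monocytes, was above the floor in every mouse, from 34.8 in mouse 7 to 464 in mouse 12. The sum of this list was 749 and 738 in PBS Rα+/+, 878 and 796 in PBS RαTd/Td, 98.5, 177 and 92.8 in IL-4c Rα+/+ and 155, 160.2, 290.0 and 597 in IL-4c RαTd/Td mice. Mouse 12, which had the highest Cebpa of its group, also had the highest sum of its group on this list, of which Ccr2 made up 464, and the lowest on the list of large peritoneal macrophages. Without mouse 12 the Cebpa difference between the genotypes after IL-4c was 0.62 and that of Batf was -0.39. The part of these markers in the values of Batf, Cebpa and Nfatc2 was not tested.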

How the data were processed

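Sorted peritoneal macrophages of 11 mice were measured with the Nanostring Myeloid Innate Immunity panel, 1 column per mouse. The deposited values are a signal made by the authors, counts of each gene scaled to Rpl19, Oaz1, Gusb and Eef1g, and nothing lies below a floor of 30. The software version and background handling are not given in the sources used here. The 14 control probes are unscaled and were left out. Each mouse's factor was recovered from the values (100% of values under 1000 counts whole within 0.1 counts) and gave the counts, the lowest measurable value and exact Poisson 95% intervals, which cover counting error only.

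Genes with a mean above 30 (445 of 754) were fitted with limma 3.58.1 in R 4.3.3 on log2(value + 1), with 1 mean per group over all 11 mice. Since no value lies below 30, these are the genes above the floor in at least 1 mouse, and 303 genes were above it in every mouse. Each of the 5 comparisons had its own Benjamini-Hochberg adjustment, called at 0.05. These p-values measure spread between these mice only. The fit and the recovery of factors were tested on simulated data. Batf, Cebpa and Nfatc2 have differences with an SE from their own residual spread and no test. The members and lists were chosen with earlier results of these data known. Named genes are these 3, Retnla, the housekeeping genes, up to 4 called genes of each list per comparison with the largest difference, Laptm5, the 2 most abundant genes of each marker list, and the 5 genes closest to each of the 3, with all 54 in the tables and the text giving a selection. Gata6, Dusp2 and marker genes at the floor are named in addition to these. Folds are ratios of geometric means. 1 tested list gene is counted and is not reported here by name.

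Alternatives were other filters, median centring, quantile normalization, 10 added in place of 1, a common floor of 56.3 and each mouse left out. Others were trended and robust moderation, only the compared groups, and an unpaired t-test per gene on log2(value + 1), called the methods' t-test. The study names that test for comparisons of 2 groups, but its gene calls came from the Nanostring software, which was not rerun. Promoter windows are RefSeq's, on GRCm38.p6.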

Additional observations from a re-analysis of the deposited data

Results flagged for a closer look

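Values of the 4 IL-4c-injected RαTd/Td mice were searched for a mouse far from the other 3. Of the 54 named genes 6 had the same value in all 4 mice, which leaves 48 groups. By a rule that picks out about 1 in 20 by chance, 5 were found. In 3 of these the other mice were all at the floor, which fixes the outcome. The 5 therefore cannot be set against a number from chance. Nfatc2, among these 3, was also chosen from its values. Trem2 was at 342 in mouse 12, with the other 3 mice between 76.5 and 90.9. Tmem173 was at 44.8 in mouse 12, where the other mice were between 30 and 32.4. In the other 3 genes, Ms4a1 (63.1 in mouse 12), Fosb (44.8 in mouse 9) and Nfatc2 (33.3 in mouse 9), the other mice were all at the floor, where any value above the floor is picked out.

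Of the 9 genes that limma called for a difference between the genotypes in the log2 response to IL-4c, 3 are among the named genes. Atf3 had a difference of -1.19 (adjusted p = 0.0154) and Jun one of -1.22 (adjusted p = 0.0220), and both were higher after PBS in RαTd/Td mice than in Rα+/+ mice. Without mouse 4 these were -1.14 for Atf3 (adjusted p = 0.0963) and -1.14 for Jun (0.122), and without mouse 6 they were -1.18 (0.0585) and -1.24 (0.0624). The Jun call was also lost without mouse 2, 5, 7 or 10 (adjusted p from 0.0530 to 0.0859). Retnla had a difference of -5.03 (adjusted p = 3.66e-07), since it is at the floor in every RαTd/Td mouse.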

How the results depend on the processing

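Of 75 alternative values for the 5 log2 differences of Batf 72 kept their direction and 68 moved by less than 1 residual SD. Of 75 for Cebpa 74 kept their direction, and the difference in response was -0.01 without mouse 1. Nfatc2 is not counted, since floor values fix its differences in part. Batf with IL-4c in RαTd/Td mice was 0.05 without mouse 3. All alternatives for Cebpa stayed within 1 SD. Batf with IL-4c in RαTd/Td mice reversed to 0.27 by centring on the median gene and to 0.31 by quantile normalization. Its IL-4c difference in Rα+/+ mice was 1.17 and 1.13, and its genotype difference after PBS 0.28 and 0.43. Batf between the genotypes after IL-4c was -0.62 by centring. Nfatc2 with IL-4c in Rα+/+ mice was 0.87 by centring, 0.86 by quantile normalization and 0.48 with 10 added. By centring it was 0.37 with IL-4c in RαTd/Td mice, -0.33 between the genotypes after PBS, where all values are at the floor, and -0.83 after IL-4c. The last was -0.81 by quantile normalization and -0.45 with 10 added, as was its difference in response. Under the housekeeping scaling Nfatc2 with IL-4c in RαTd/Td mice was 0 without mouse 9. With 1 floor of 56.3 for all mice Nfatc2 had no value. The cause was not tested.

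In proportion to its size, the number of genes called differed most for the comparisons between the genotypes. After PBS it was 43, and 18 with no filter, 23 by centring, 23 by quantile normalization, 3 with only the 2 groups, 2 by the methods' t-test with adjustment, and from 3 (mouse 4) to 73 (mouse 1) on leaving out a mouse. With IL-4c it was 12, and 5 with no filter, 7 with a mean above 100, 6 above 30 in every mouse, 4 with 1 floor, 2 with only the 2 groups, 73 and 2 by the methods' t-test without and with adjustment, 5 without mouse 5 and 27 without mouse 9. For the difference in response it was 9, and 4 with a mean above 100, 2 above 30 in every mouse, 18 by quantile normalization, 16 with 1 floor, 3 without mouse 4 and 30 without mouse 1. The IL-4c counts, 206 in Rα+/+ and 231 in RαTd/Td mice, ran from 147 to 227 and from 162 to 243 when mice were left out. The cause was not tested.

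The share of calls that were higher depended on scaling. Under the housekeeping genes, centring and quantile normalization it was 30.1%, 51.6% and 49.3% for IL-4c in Rα+/+ and 29.4%, 57.6% and 44.9% in RαTd/Td mice. Between the genotypes it was 83.7%, 39.1% and 65.2% after PBS and 58.3%, 10% and 41.7% after IL-4c.

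Of 66 comparisons of named genes 34 were the same under every alternative, 32 changed and 2 reversed. Laptm5 with IL-4c in Rα+/+ mice was 0.0375 by centring, and its difference in response ran from -0.34 without mouse 1 to 0.0509 without mouse 2. The cause was not tested. Leaving out a PBS-injected mouse leaves 1 in its group, which the fit takes to vary like the other groups. The edgeR alternative was not run. Of 30 counts of list genes 13 stayed within 1.5 times under every alternative.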
